A study of Mus musculus with 12 samples.

Results

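The genes of cholesterol synthesis, uptake, storage and transport were followed in the adrenal glands of mice that carry extra copies of Ftz-F1, the gene Nr5a1 of the nuclear receptor SF-1. The set holds 37 genes, chosen by name and matched by symbol to the platform's probe-to-gene table. Of these, 35 had a probe and 33 had values that could be tested, out of 21513 features tested on the arrays, 17882 of them named genes. Acat2, an acetyl-CoA thiolase gene, and Soat1, the gene of the enzyme that esterifies cholesterol for storage, had no probe in the table. Hsd17b7, a sterol demethylation enzyme gene, and Insig2, a sterol sensor gene, had a probe with no value on any array. Every tested member had 1 probe and a value on all 12 arrays, so all 33 passed the filter on missing values.

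Adrenal cells need cholesterol as the starting material of all steroid hormones. They build it from acetyl-CoA through isoprenoid and sterol intermediates, take it up from lipoproteins through scavenger receptor B1 and other receptors, and keep it as cholesteryl ester in lipid droplets. Lipases release it from the esters, and carrier proteins move it between endosomes, mitochondria and the cell surface. The synthesis enzymes are known targets of the sterol-sensing transcription factors encoded by Srebf1 and Srebf2.

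All transgenic mice came from line 56, a single line labelled as carrying a yeast artificial chromosome (YAC), and each was hybridized on 2-colour arrays against 1 wild-type littermate matched for sex and age. The 4-month-old mice carried 2 copies of the transgene (pairs 1, 3 and 5) and the 10-day-old mice carried 1 copy (pairs 11, 13 and 15). Pairs are named by the number of the transgenic mouse, pairs 5 and 15 were female and the other 4 pairs were male. Each of the 6 pairs was measured on 2 arrays with the dyes exchanged, and age and copy number change together, so they cannot be told apart. Values are log2 ratios of the 2 channels after removal of the dye trend of each array, and a ratio of 1 is a 2-fold difference. The sources used here do not say whether a positive ratio means a higher level in the transgenic or in the wild-type mouse, so signs are given as deposited. If the ratios are wild type over transgenic, every sign below turns. In whole glands, fewer cells of a type and less RNA per cell cannot be told apart.

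Some pairs stood apart in genes of other cell types, and the part of these cells in the values below was not tested. Adipocyte markers had a median ratio of 1.70 in pair 15, with 9 of 10 positive and Adipoq at 5.13, against -0.28 to 0.10 in the other pairs. Hepatocyte markers had a median of 1.42 in pair 11, with Alb at 6.73. In pair 3 the lymphocyte markers had a median of -1.86 and the macrophage markers a median of -1.20. Results are therefore also given without pairs 3, 11 and 15 together. The targeted gene, Nr5a1, was at -0.46, 0.11 and -0.22 in 4-month pairs 1, 3 and 5 and at -0.57, -0.65 and -0.79 in 10-day pairs 11, 13 and 15. Its mean over all pairs was -0.43 ± 0.089 (SE of the limma fit, adjusted p = 0.104), and the sources used here do not say whether its probe detects the transcript of the transgene. Nr5a1 therefore did not settle the direction of the ratios.

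Promoters of 6 members are shown, picked by unadjusted p-values. Stard5 and Abca1 had the smallest p-values over all pairs, and Sc5d, Idi1, Msmo1 and Hmgcs1 had the smallest p-values for the difference between female and male pairs among the synthesis genes with a promoter in the reference table. The choice of the last 4 was made after their values were seen. The planned choice, by the smallest p-values over all pairs, would have shown Nsdhl, Lss, Mvd and Lrp1 in their place. The windows run from 250 bases before to 50 bases after the annotated start and come from RefSeq (GRCm38.p6), written 5′ to 3′ in the direction of the gene. Capitals mark matches on either strand to CCAAT, a box found in many promoters, to CACCCCAC, a core of the sterol regulatory element, and to CAAGGTCA, a binding motif of SF-1.
Stard5, chr7:83631767-83632066, plus strand: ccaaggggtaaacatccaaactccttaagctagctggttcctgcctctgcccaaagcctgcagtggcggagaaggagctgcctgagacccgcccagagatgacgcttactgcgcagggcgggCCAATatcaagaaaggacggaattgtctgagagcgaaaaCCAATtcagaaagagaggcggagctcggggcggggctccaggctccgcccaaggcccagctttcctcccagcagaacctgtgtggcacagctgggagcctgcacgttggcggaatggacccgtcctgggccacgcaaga
Abca1, chr4:53159846-53160145, minus strand: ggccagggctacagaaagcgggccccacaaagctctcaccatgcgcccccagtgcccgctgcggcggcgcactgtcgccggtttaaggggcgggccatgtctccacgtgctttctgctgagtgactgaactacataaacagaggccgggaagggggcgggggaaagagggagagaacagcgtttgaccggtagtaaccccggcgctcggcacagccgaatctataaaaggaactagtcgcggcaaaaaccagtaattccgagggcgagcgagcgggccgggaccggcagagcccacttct
Sc5d, chr9:42264251-42264550, minus strand: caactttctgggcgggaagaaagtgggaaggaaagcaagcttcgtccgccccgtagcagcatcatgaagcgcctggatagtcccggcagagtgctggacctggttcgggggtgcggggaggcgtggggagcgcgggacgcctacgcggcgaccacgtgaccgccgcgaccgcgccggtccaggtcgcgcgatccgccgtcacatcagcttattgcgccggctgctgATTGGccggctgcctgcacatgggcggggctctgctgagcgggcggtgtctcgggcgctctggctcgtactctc
Idi1, chr13:8885356-8885655, plus strand: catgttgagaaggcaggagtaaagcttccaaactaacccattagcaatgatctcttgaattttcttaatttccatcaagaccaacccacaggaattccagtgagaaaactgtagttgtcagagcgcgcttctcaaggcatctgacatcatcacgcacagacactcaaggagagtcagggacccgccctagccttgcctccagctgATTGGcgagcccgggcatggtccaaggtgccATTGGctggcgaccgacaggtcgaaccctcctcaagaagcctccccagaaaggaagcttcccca
Msmo1, chr8:64733529-64733828, minus strand: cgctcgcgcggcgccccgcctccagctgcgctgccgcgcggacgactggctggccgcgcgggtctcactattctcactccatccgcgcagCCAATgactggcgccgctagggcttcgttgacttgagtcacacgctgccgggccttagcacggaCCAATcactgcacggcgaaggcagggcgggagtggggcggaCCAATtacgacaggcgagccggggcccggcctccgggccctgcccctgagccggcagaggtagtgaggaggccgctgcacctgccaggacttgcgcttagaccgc
Hmgcs1, chr13:119690101-119690400, plus strand: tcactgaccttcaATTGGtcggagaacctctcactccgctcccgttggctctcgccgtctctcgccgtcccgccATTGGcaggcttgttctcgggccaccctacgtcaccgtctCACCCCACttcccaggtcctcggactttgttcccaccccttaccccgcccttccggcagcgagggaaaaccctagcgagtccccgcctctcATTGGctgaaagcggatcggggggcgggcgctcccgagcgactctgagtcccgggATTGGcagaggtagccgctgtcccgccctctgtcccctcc
Stard5 had 2 CCAAT matches, Msmo1 had 3, Idi1 had 2 and Sc5d had 1, while none of the 3 motifs matched in the Abca1 window. Hmgcs1 had 4 CCAAT matches and 1 match to CACCCCAC, which begins at position -136 from the annotated start. In all, 30 members had 42 such windows, and CCAAT was in 25 of them (59.5%), against 37.4% of all 32851 windows of the table. Among the synthesis genes it was in 14 of 18 windows (77.8%). CACCCCAC was in 2 windows (4.76%, against 2.87% of all windows), those of Hmgcs1 and Acat2, and CAAGGTCA in 1 (2.38%, against 1.56%), that of Dhcr7. None of the 3 motifs contains another, and a match is a description of the sequence, not evidence of binding. Fdps, Fdft1, Sqle, Scarb1, Npc1, Stard4 and Abcg1 were not matched in this table.

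The first comparison asks which of these genes had a ratio away from 0 over all 6 pairs, whatever the age. None of the 33 members passed an adjusted p of 0.05 in limma, and the smallest adjusted p was 0.113, for Stard5. Across all features 0.0511% passed with a positive ratio and 0.00465% with a negative one. At an unadjusted p under 0.05, 1 member was positive (3.03%, against 7.52% of all features) and 6 were negative (18.2%, against 7.45%). The positive share was below that of all features and the negative share above it. Chromaffin cell markers differed in the same comparison, with 12 of 14 positive, a median of 0.38, 7 at an unadjusted p under 0.05 and 2, Gal and Scg5, past the adjusted threshold (adjusted p = 0.036 in limma). The part of the medulla in the members' ratios was not tested. The same fit without moderation placed 3 members under that p, and 4 were under it without pairs 3, 11 and 15, without pair 5 or without pair 15. The median ratio of the 33 members was -0.08, beside -0.01 for all features, and 23 members were negative (69.7%, against 52.9%).

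**Figure D1:**
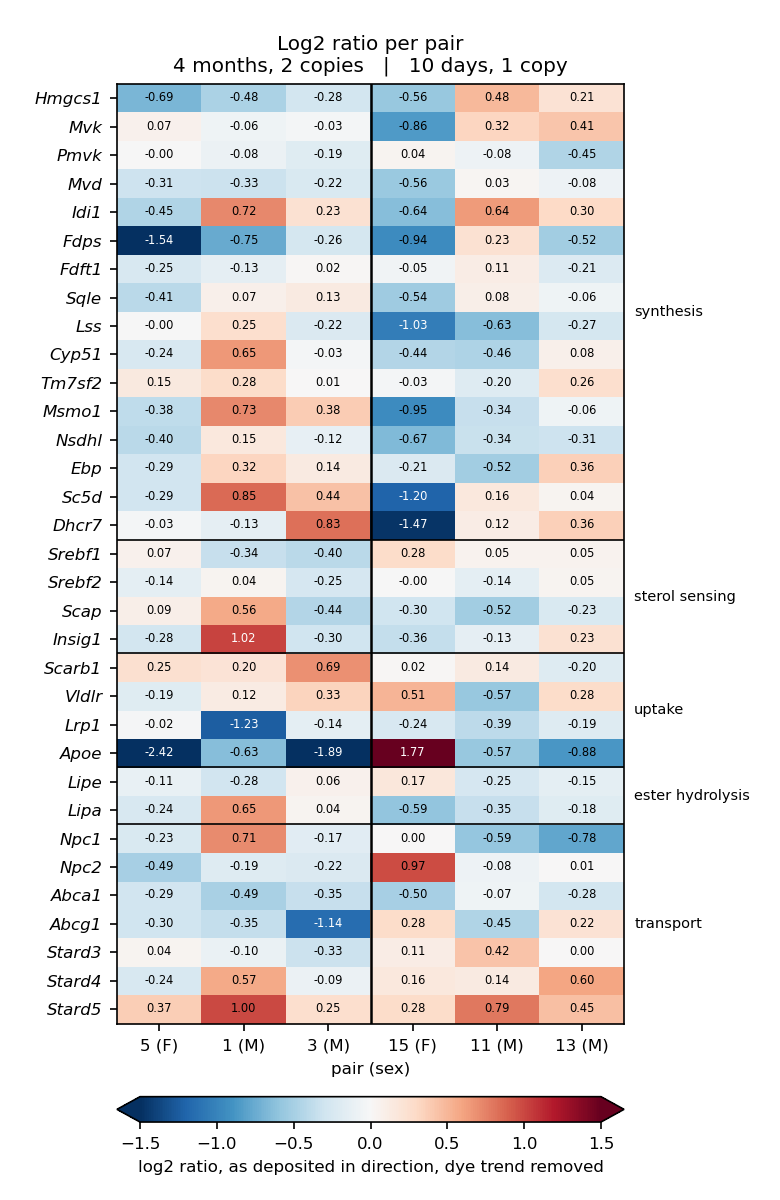
Log2 ratio of each of the 33 tested genes (rows, grouped by role) in each pair (columns; F female, M male), with the value printed in each cell and the colour scale cut at 1.5 in either direction. The row of Stard5 is positive in all 6 pairs and that of Abca1 negative in all 6, while most synthesis genes are negative in female pairs 5 and 15.

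Among the 16 synthesis genes, 13 had a negative mean ratio and 4 of these had an unadjusted p under 0.05, with a median of -0.10. Fdps, which makes farnesyl diphosphate, the branch point between sterols and other isoprenoids, was at -0.75, -0.26 and -1.54 in 4-month pairs 1, 3 and 5, against 0.23, -0.52 and -0.94 in 10-day pairs 11, 13 and 15. Its mean was -0.63 ± 0.19 (SE, unadjusted p = 0.0111, adjusted p = 0.202 in limma). Pair 11 alone was positive, and in these averages the lowest pairs of the gene were the female ones. The arrays of a pair often disagreed. With the transgenic sample in Cy5, pairs 1, 3, 5, 11, 13 and 15 were at -0.02, 0.34, -2.32, 0.39, -0.23 and -1.42. With it in Cy3 they were at -1.48, -0.86, -0.76, 0.06, -0.81 and -0.46. There both female pairs were above male pairs 1, 3 and 13. Mvd, whose enzyme makes isopentenyl diphosphate, was at -0.33, -0.22 and -0.31 at 4 months, against 0.03, -0.08 and -0.56 at 10 days. Its 4-month pairs lay within a narrow range and its 10-day pairs spread around them, with a mean of -0.25 ± 0.091 (adjusted p = 0.275 in limma). That mean was -0.40 on the arrays with the transgenic mouse in Cy5 (adjusted p = 0.0491 in limma) and -0.09 on those with it in Cy3 (adjusted p = 0.605).

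Lss and Nsdhl act further down the pathway, Lss closing the sterol ring to lanosterol and Nsdhl taking part in the removal of its extra methyl groups. Lss was at 0.25, -0.22 and -0.00 in 4-month pairs 1, 3 and 5, against -0.63, -0.27 and -1.03 in 10-day pairs 11, 13 and 15. The 10-day pairs were all below the 4-month pairs. The mean over all pairs was -0.32 ± 0.11 (adjusted p = 0.257 in limma), but it rested on 1 dye orientation, as described with the dyes below. Nsdhl was at 0.15, -0.12 and -0.40 at 4 months, against -0.34, -0.31 and -0.67 at 10 days, with a mean of -0.28 ± 0.094 (adjusted p = 0.242). Only pair 1 was positive, and the lowest pairs of either age were female.

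The other synthesis genes had means between -0.22 (Hmgcs1, HMG-CoA synthase) and 0.13 (Idi1, isopentenyl diphosphate isomerase). Their pairs spread on both sides of 0. The pairs of Dhcr7, the last reductase of the pathway, ran from -1.47 to 0.83, and those of Sc5d, a sterol desaturase, ran from -1.20 to 0.85. Both genes had means near 0, at -0.06 and 0.00, and their lowest pair was female pair 15. The 4 tested genes of sterol sensing, Srebf1, Srebf2, Scap (the escort protein of both factors) and Insig1 (which holds that escort in the endoplasmic reticulum when sterols are high), had means between -0.14 and 0.03. None of them had an unadjusted p under 0.05. The pairs of Srebf2 ran from -0.25 to 0.05, a narrow spread, while those of Insig1 ran from -0.36 to 1.02 with pair 1 highest.

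Of the 4 uptake genes, Lrp1, a large endocytic receptor for lipoproteins that carry apolipoprotein E, was negative in all pairs. It was at -1.23, -0.14 and -0.02 in 4-month pairs 1, 3 and 5, against -0.39, -0.19 and -0.24 in 10-day pairs 11, 13 and 15. Pair 1 stood far below the others, and the mean of -0.37 ± 0.15 had an adjusted p of 0.315 in limma. Without pair 1 it was -0.18, and the unadjusted p was under 0.05 in 2 of the 6 fits that left out 1 pair. Scarb1, the scavenger receptor that delivers cholesteryl ester from high-density lipoprotein to the adrenal cortex, and Vldlr, a lipoprotein receptor, had means of 0.18 and 0.08, neither at an unadjusted p under 0.05. Apoe, a ligand of several of these receptors that is also made by macrophages and hepatocytes, had the largest mean in size, -0.77, with an SD of 1.45 over the pairs. It was negative in every pair but pair 15. The ester lipase genes Lipe (hormone-sensitive lipase) and Lipa (lysosomal acid lipase) had means of -0.09 and -0.11, and they were the 2 of 3 storage genes that were tested.

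Stard5, which encodes a cytosolic sterol carrier with a START lipid-binding domain, was at 1.00, 0.25 and 0.37 in 4-month pairs 1, 3 and 5, against 0.79, 0.45 and 0.28 in 10-day pairs 11, 13 and 15. All pairs were positive and the ages overlapped. The mean of 0.52 ± 0.12 had an unadjusted p of 0.00217 and an adjusted p of 0.113 in limma. Stard5 was also the 1 member with the same sign on all 12 arrays (3.03%, against 1.27% of all features positive on every array). Abca1, the transporter that hands cholesterol to lipid-poor apolipoprotein A-I, was at -0.49, -0.35 and -0.29 at 4 months, against -0.07, -0.28 and -0.50 at 10 days. It was negative in every pair, with a mean of -0.33 ± 0.080 (unadjusted p = 0.00357, adjusted p = 0.141 in limma), and the ages overlapped.

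In all, 1 member was positive in all 6 pairs (3.03%, against 5.67% of all features) and 2 members, Abca1 and Lrp1, were negative in all 6 (6.06%, against 4.75%). These shares were near those of all features. The other transport genes had means between -0.29 (Abcg1, an exporter of cholesterol to high-density lipoprotein) and 0.19 (Stard4, a sterol carrier). Npc1 and Npc2, which together move cholesterol out of late endosomes, had means of -0.18 and 0.00, and Stard3, an endosomal sterol-binding protein, a mean of 0.03.

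At 4 months with 2 copies no member passed an adjusted p of 0.05 in limma, nor did any other feature (0% in either direction). The smallest adjusted p of a member was 0.29, for Abca1. At an unadjusted p under 0.05, 2 members were positive (6.06%, against 6.09% of all features) and 5 were negative (15.2%, against 6.21%). The fit without moderation placed 2 members under that p, 5 were under it without pairs 3, 11 and 15, and 4 without pair 1. The median of the members was -0.01, as for all features.

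The positive members at 4 months were Stard5 at 0.54 ± 0.17 (SE) and Scarb1 at 0.38 ± 0.13 (adjusted p = 0.293 and 0.325 in limma). Scarb1 was at 0.20, 0.69 and 0.25 in 4-month pairs 1, 3 and 5, against 0.14, -0.20 and 0.02 in 10-day pairs 11, 13 and 15. Every 4-month pair was above every 10-day pair, but in pairs 1 and 5 the arrays with the transgenic sample in Cy5 were at -0.50 and -0.09 and those with it in Cy3 at 0.90 and 0.58. Abcg1 was at -0.35, -1.14 and -0.30 at 4 months, against -0.45, 0.22 and 0.28 at 10 days, and its 4-month mean was -0.60 ± 0.20 (adjusted p = 0.324 in limma). Pair 3 was its lowest pair. Hmgcs1 was at -0.48, -0.28 and -0.69 at 4 months, against 0.48, 0.21 and -0.56 at 10 days, with a 4-month mean of -0.48 ± 0.19 (adjusted p = 0.372 in limma). In these averages the female pair was lowest at either age. With the transgenic sample in Cy5, 4-month pairs 1, 3 and 5 were at 0.02, 0.14 and -0.56. With it in Cy3 they were at -0.98, -0.70 and -0.81, so the 4-month mean of Hmgcs1 came mostly from the Cy3 arrays. The 4-month mean of Fdps was -0.85 ± 0.27 (adjusted p = 0.306 in limma) and that of Abca1 was -0.38 ± 0.11.

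Apoe had the lowest 4-month mean of the set, -1.65 ± 0.51 (unadjusted p = 0.012, adjusted p = 0.295 in limma). It was at -0.63, -1.89 and -2.42 in 4-month pairs 1, 3 and 5, against -0.57, -0.88 and 1.77 in 10-day pairs 11, 13 and 15. Both dye orientations gave the same sign in every pair, and pair 15 alone was positive. Macrophage markers had medians of -0.18, -1.20 and -0.47 at 4 months, against -0.02, -0.01 and 0.62 at 10 days. At 4 months 11 of the 13 tested macrophage markers were negative, 7 of them at an unadjusted p under 0.05 (against 6.21% of all features), with a median of -0.65. The other 2, Cd14 (mean 0.62) and Tyrobp (mean 0.29), were positive, and 1 of them, Cd14, was under that p (against 6.09% of all features). Hepatocyte markers were highest in pair 11 and adipocyte markers in pair 15. The part of these cells in the Apoe ratio was not tested.

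At 10 days with 1 copy no member passed an adjusted p of 0.05 in limma (0% of all features in either direction), and the smallest adjusted p of a member was 0.40, for Lss. At an unadjusted p under 0.05, 1 member was positive (3.03%, against 4.25% of all features) and 3 were negative (9.09%, against 4.09%). Stard5 averaged 0.51 ± 0.17 (SE), Lss -0.65 ± 0.16, Nsdhl -0.44 ± 0.13 and Abca1 -0.28 ± 0.11 (adjusted p = 0.477, 0.40, 0.462 and 0.559 in limma). On the Cy3 arrays alone the Lss mean was 0.16, and Abca1 was at 0.04, 0.02 and -0.21 in pairs 11, 13 and 15. The fit without moderation placed 3 members under that p. Without pairs 3, 11 and 15 no member was under it, and pair 13 was then the only 10-day pair, while 8 were under it without pair 1. Npc1 had the next largest mean in size, -0.46, with -0.59, -0.78 and 0.00 in pairs 11, 13 and 15, against 0.71, -0.17 and -0.23 in 4-month pairs 1, 3 and 5. Female pair 15 was the 10-day pair near 0, and the positive pair 1 came from its Cy5 array, at 1.70, while its Cy3 array was at -0.28. Msmo1, a sterol methyl oxidase acting on lanosterol products, was at -0.34, -0.06 and -0.95 at 10 days and had a mean of -0.45.

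**Figure D2:**
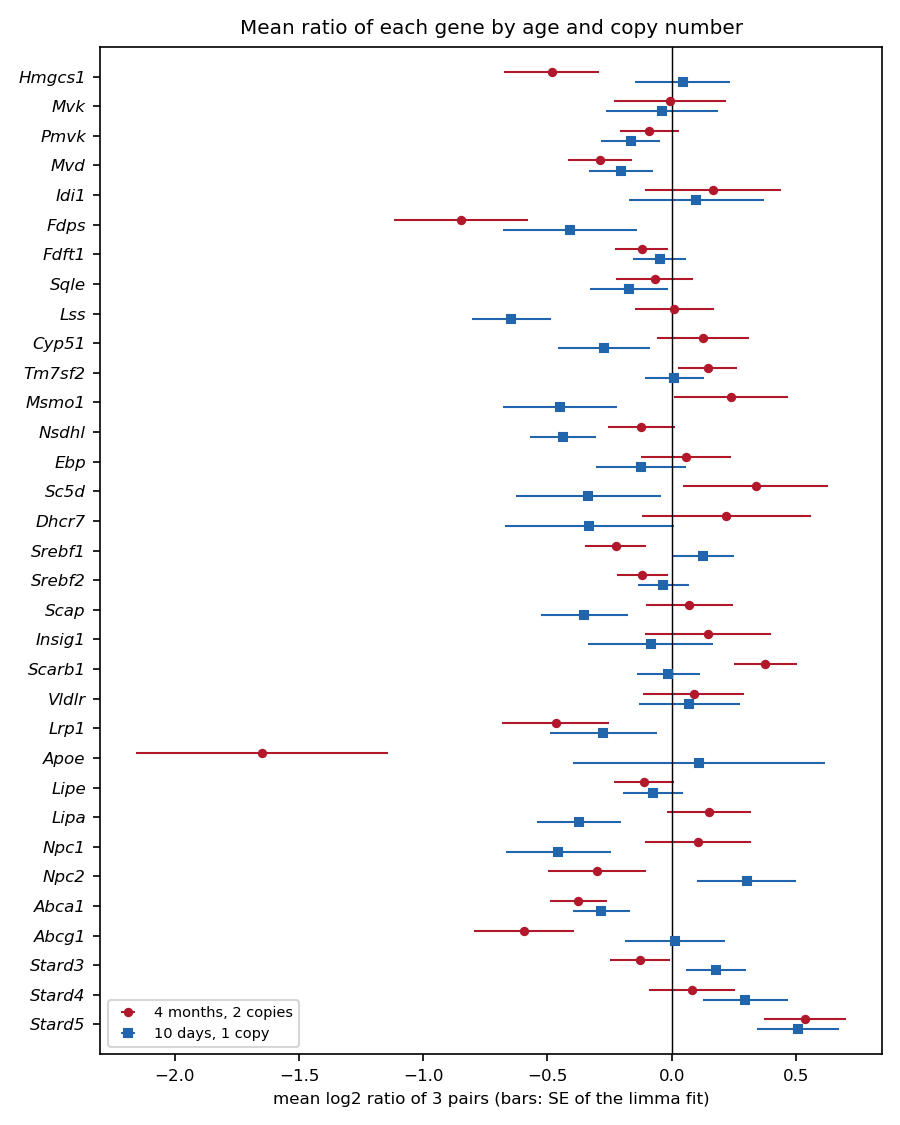
Mean log2 ratio of the 3 pairs of each age for each of the 33 genes (points: circles 4 months with 2 copies, squares 10 days with 1 copy; bars: SE of the limma fit). Apoe lies at -1.65 at 4 months and 0.11 at 10 days with the widest bars, and Stard5 lies at 0.54 and 0.51.

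The ages were then compared with each other. The difference of 4-month minus 10-day ratios passed an adjusted p of 0.05 for no member (0% of all features in either direction), and the smallest adjusted p in limma was 0.933. At an unadjusted p under 0.05, 1 member was higher at 4 months, Lss (3.03%, against 2.17% of all features), and 1 was lower, Apoe (3.03%, against 2.39%). The difference was 0.66 ± 0.22 (SE) for Lss and -1.76 ± 0.72 for Apoe. For Lss it was 0.84 on the Cy5 arrays alone (those with the transgenic sample in Cy5) and 0.48 on the Cy3 arrays alone. For Apoe it was -1.94 on the Cy5 arrays alone and -1.58 on the Cy3 arrays alone. Without pair 15 it was -0.93, and the unadjusted p was under 0.05 in 3 of the 6 fits that left out 1 pair. The fit without moderation placed no member under that p, while 6 members were under it without pair 5 and 4 without pair 11. Lss and Scarb1 had every 4-month pair above every 10-day pair (6.06%, against 5.06% of all features), and Npc2 had every one below (3.03%, against 5.33%). The Scarb1 difference was 0.05 on the Cy5 arrays and 0.74 on the Cy3 arrays. Npc2 was at -0.19, -0.22 and -0.49 in 4-month pairs 1, 3 and 5, against -0.08, 0.01 and 0.97 in 10-day pairs 11, 13 and 15, where pair 15 stood far above the rest. Sc5d had a difference of 0.67 and Msmo1 one of 0.69, within the spread of their pairs. The synthesis genes had a median difference of 0.12, with 12 of 16 positive, beside 0.00 for all features, of which 50% were positive.

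Female and male pairs were compared with a term for age, which leaves 2 female and 4 male pairs. The 8 members at an unadjusted p under 0.05 were all synthesis genes and were all lower in the female pairs (24.2%, against 2.34% of all features), and 0 members were higher (against 3.42%). None passed an adjusted p of 0.05 in limma (0% of all features in either direction), where the smallest adjusted p was 0.753. The fit without moderation kept 5 of the 8 under that p, Idi1, Sqle, Msmo1, Nsdhl and Sc5d, and added Srebf1, which was higher in the female pairs. Without pairs 3, 11 and 15, 1 female and 2 male pairs remain, too few for the age term, and in a fit without it Idi1 and Fdps were under that p, with 4 other members in place of the rest. Of the 16 synthesis genes, 15 had a lower mean in the female pairs, with a median difference of -0.46, beside -0.00 for all features, of which 50.3% were lower. Members of this pathway are regulated together, so they are not independent of one another.

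Sc5d was at -0.29 and -1.20 in female pairs 5 and 15, against 0.85, 0.44, 0.16 and 0.04 in male pairs 1, 3, 11 and 13. Its difference was -1.12 ± 0.19 (SE, unadjusted p = 0.000547), and no female pair overlapped a male one. Idi1 was at -0.45 and -0.64 in the female pairs, against 0.72, 0.23, 0.64 and 0.30 in the male pairs, a difference of -1.02 ± 0.20 (unadjusted p = 0.00146). Its sexes also lay on opposite sides of 0. Msmo1 was at -0.38 and -0.95 in the female pairs, against 0.73, 0.38, -0.34 and -0.06 in the male pairs, a difference of -0.84 ± 0.18 (unadjusted p = 0.00231). Male pair 11 was nearly as low as female pair 5, without overlap.

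Sqle, squalene epoxidase, was at -0.41 and -0.54 in the female pairs, against 0.07, 0.13, 0.08 and -0.06 in the male pairs, and differed by -0.53 ± 0.15 (unadjusted p = 0.00923). The male pairs were all near 0. Hmgcs1 differed by -0.61 ± 0.20 (unadjusted p = 0.0181), Fdps by -0.91 ± 0.25 (unadjusted p = 0.00872) and Nsdhl by -0.38 ± 0.16 (unadjusted p = 0.0474), each with every female pair below every male pair. Dhcr7 was at -0.03 and -1.47 in the female pairs, against -0.13, 0.83, 0.12 and 0.36 in the male pairs. Its difference of -1.04 ± 0.37 (unadjusted p = 0.0249) came mostly from pair 15, and its sexes overlapped. In this comparison limma gave these 8 genes adjusted p-values of 0.753 to 0.864.

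**Figure D3:**
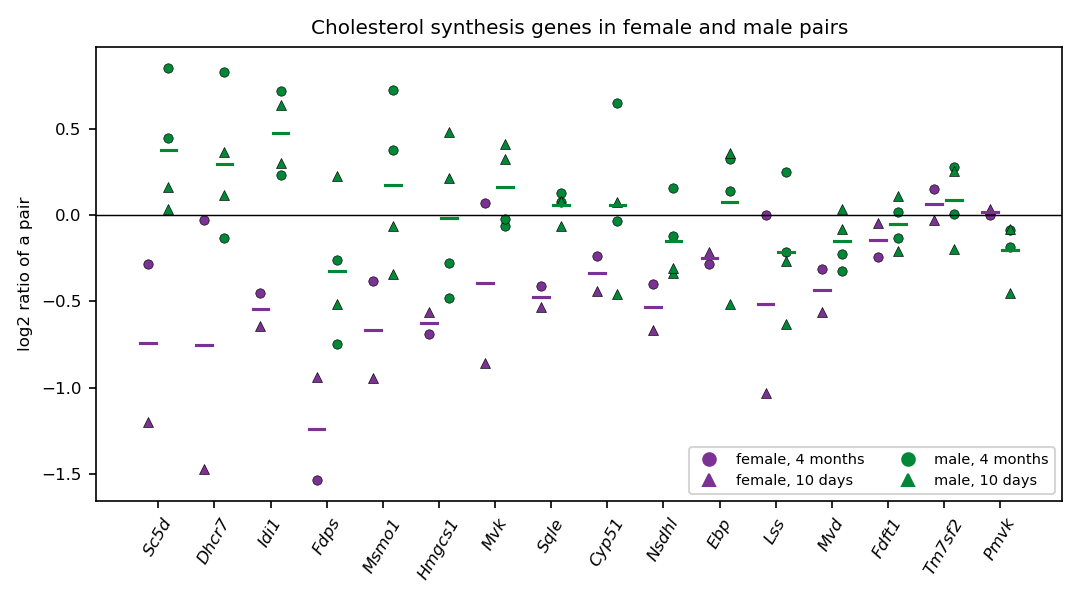
Log2 ratio of each pair for the 16 synthesis genes, ordered by the difference of the means (purple female, green male; circles 4 months, triangles 10 days; short lines the mean of each sex). Sc5d and Idi1 have both female pairs below 0 and all 4 male pairs above 0.

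Over the whole set, 7 members had every female pair below every male pair (21.2%, against 7.13% of all features): Fdps, Hmgcs1, Idi1, Msmo1, Nsdhl, Sc5d and Sqle. Another 2, Pmvk (phosphomevalonate kinase) and Srebf1, had every female pair above (6.06%, against 7.11%). The median ratio of the 16 synthesis genes was -0.29 in pair 5 and -0.60 in pair 15, against 0.11, -0.01, 0.06 and -0.01 in pairs 1, 3, 11 and 13. Both female pairs therefore lay below all male pairs in that median, at either age. Leaving out either female pair leaves 1, which is then assumed to vary like the male pairs. Without pair 15, 4 members had an unadjusted p under 0.05, Fdps, Idi1, Msmo1 and Sc5d, while Hmgcs1 was at -0.31 and Dhcr7 at -0.38. Without pair 5, Hmgcs1, Mvk, Idi1, Msmo1, Sc5d and Dhcr7 were lower in the remaining female pair at that p, and Apoe and Npc2 were higher. The Apoe difference was 0.67 with all pairs, 2.49 without pair 5 and -1.16 without pair 15.

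Within the arrays of each dye the difference of Sc5d was -1.12 with the transgenic sample in Cy5 and -1.12 with it in Cy3, and that of Msmo1 was -0.84 in both. Idi1 differed by -1.12 in Cy5 and -0.92 in Cy3. Fdps differed by -1.99 in Cy5 but by 0.16 in Cy3, so its difference rested on the Cy5 arrays. Nsdhl differed by -0.62 in Cy5 and -0.14 in Cy3, and Hmgcs1 by -0.81 and -0.41, each under the unadjusted p on the Cy5 arrays but not on the Cy3 arrays. Sqle differed by -0.45 in Cy5 and -0.61 in Cy3, and was under it on the Cy3 arrays but not on the Cy5 arrays. Outside the synthesis genes, uptake genes had a median difference of 0.24, transport genes 0.08, sterol-sensing genes 0.03 and storage genes -0.13, with none under the unadjusted p. Markers of other cell types differed between the sexes too. Hepatocyte markers had a median difference of -0.46 with 12 of 14 lower, none at an unadjusted p under 0.05. Their median ratio was 1.42 in male pair 11, against -0.02 to 0.30 in the other pairs. Endothelial markers had a median difference of 0.19 with 4 of 10 higher at that p (against 3.42% of all features). Adrenal cortex markers had one of 0.27 with 7 of 9 higher, 2 of them, Cyp11b2 and Nr0b1, at that p. Of chromaffin markers 11 of 14 were higher, 2 at that p, of macrophage markers 8 of 13, 2 at that p, and of lymphocyte markers 9 of 10, 0 at that p. Of 10 adipocyte markers, 8 were higher in the female pairs at an unadjusted p under 0.05, with a median difference of 1.17. Their median ratio was 0.10 in female pair 5 and 1.70 in female pair 15, against -0.28 to -0.03 in the male pairs. The difference of these markers thus came mostly from pair 15. The part of these cells in the result was not tested, and each ratio is within a pair of 1 sex, so the values do not compare female with male mice directly.

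Since the arrays of a pair hold the same RNA with the dyes exchanged, their agreement is a measure of technical error. The dye orientation differed past an adjusted p of 0.05 in limma for 5 members with a higher ratio when the transgenic sample was in Cy5 (15.2%, against 15.6% of all features) and for 5 with a lower one (15.2%, against 16.3%). The members were thus about as open to it as all features. On the Cy5 arrays Lss was at 0.03 in pair 1 and from -1.99 to -0.87 in the other 5 pairs, against 0.47, 0.57, 0.87, 0.14, 0.42 and -0.08 on the Cy3 arrays of pairs 1, 3, 5, 11, 13 and 15. The orientations differed by -1.43 ± 0.17 (adjusted p = 0.000258 in limma), and the mean ratio was -1.03 on Cy5 arrays but 0.40 on Cy3 arrays. Dhcr7 was, in that order of pairs, at -0.82, 0.36, -0.53, -0.09, 0.01 and -1.81 on the Cy5 arrays, against 0.55, 1.29, 0.47, 0.32, 0.71 and -1.13 on the Cy3 arrays (adjusted p = 0.00116). Its Cy5 value was lower in every pair, but pair 3 was highest and pair 15 lowest in both orientations.

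In the same order, Abca1 was at -0.97, -0.73, -0.48, -0.18, -0.58 and -0.80 on the Cy5 arrays, against -0.01, 0.03, -0.10, 0.04, 0.02 and -0.21 on the Cy3 arrays (adjusted p = 0.0049 in limma). Its negative mean thus came from the Cy5 arrays, with -0.62, while the Cy3 arrays averaged -0.04. Apoe ran from -2.73 to 1.52 on Cy5 arrays and from -2.11 to 2.02 on Cy3 arrays, and the orientations differed by -0.49 (adjusted p = 0.0106), little beside the spread of its pairs. Insig1 ran from -0.69 to 0.63 in Cy5 and from -0.17 to 1.40 in Cy3. Abca1, Apoe, Dhcr7, Insig1 and Lss were lower on the Cy5 array in all 6 pairs.

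Vldlr ran from -0.49 to 0.90 on Cy5 arrays and from -0.64 to 0.32 on Cy3 arrays (difference 0.69, adjusted p = 0.00692 in limma). Hmgcs1 ran from -0.56 to 0.55 in Cy5 and from -0.98 to 0.41 in Cy3. Fdft1, squalene synthase, ran from -0.20 to 0.44 in Cy5 and from -0.56 to -0.02 in Cy3. These 3 genes and Ebp, a sterol isomerase gene at -0.17 to 0.86 in Cy5 and -0.90 to 0.19 in Cy3, were higher on the Cy5 array in all 6 pairs. Srebf2, at -0.16 to 0.60 in Cy5 and -0.54 to 0.03 in Cy3, was higher in 4 of 6.

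**Figure D4:**
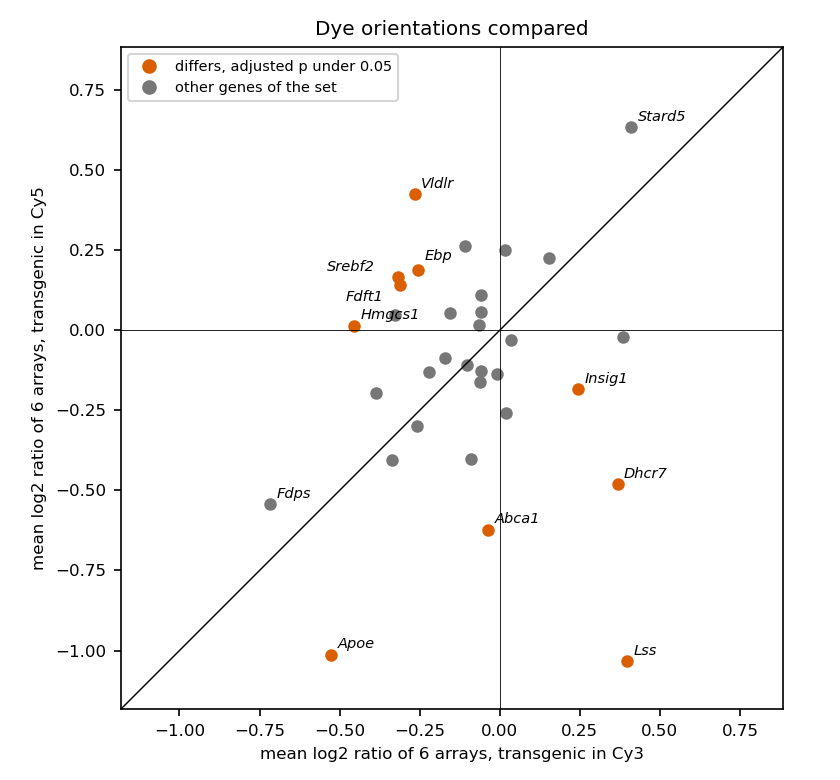
Mean log2 ratio over the 6 arrays with the transgenic sample in Cy5 (vertical) against the mean over the 6 arrays with it in Cy3 (horizontal) for each of the 33 genes, with the line of equality. Orange points differ between orientations at an adjusted p under 0.05, and Lss lies at -1.03 in Cy5 and 0.40 in Cy3, while Stard5 is positive in both.

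The arrays of a pair had the same sign in all 6 pairs for 4 members, Abcg1, Apoe, Msmo1 and Stard5 (12.1%, against 6.17% of all features). For Stard5 the arrays of pair 1 were far apart, at 1.67 in Cy5 and 0.32 in Cy3, while those of every other pair were close, as in pair 13 with 0.50 in Cy5 and 0.41 in Cy3. The dye orientations also carry different dates in the labels, so dye and date cannot be told apart.

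The wider pathway was read from lists of other genes. Of 7 tested genes of steroid synthesis, 1 had an unadjusted p under 0.05 over all pairs, Fdx1, the ferredoxin that feeds electrons to mitochondrial cytochromes P450, with a mean of 0.38 (adjusted p = 0.268 in limma). Over all features 7.52% were positive and 7.45% negative at that p. Of 25 tested genes of sterol handling, 3 were positive and 4 negative at that p. Of 10 isoprenoid genes 0 were positive and 1 negative, of 12 fatty acid synthesis genes 0 and 2, and of 16 lipid droplet genes 0 and 3. None of these passed an adjusted p of 0.05. At 4 months 2 steroid synthesis genes, Cyp11a1 (mean 0.83) and Fdx1, were positive at an unadjusted p under 0.05 (against 6.09% of all features). At 10 days 1, Cyp21a1 (mean -2.30), was negative (against 4.09%). Cyp21a1 was at -3.18, -3.96 and 0.245 in 10-day pairs 11, 13 and 15, against -1.41, 1.64 and 0.75 in 4-month pairs 1, 3 and 5.

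The smallest p-values among these genes belonged to Mbtps2, a protease that releases the SREBP factors, at 0.32 ± 0.083 (SE, adjusted p = 0.154 in limma), and to Fads1, a fatty acid desaturase, at -0.39 ± 0.10 (adjusted p = 0.157). Mbtps2 was positive in all 6 pairs, from 0.06 to 0.52, and Fads1 negative in all 6, from -0.80 to -0.08. The oxysterol-binding protein relatives Osbpl10 and Osbpl5 were at 0.24 and -0.22. Abhd5, an activator of triglyceride lipase, was at -0.28, and Erlin2, an endoplasmic reticulum protein of sterol control, at -0.25 over the 5 pairs with a value. Plin4, a lipid droplet coat protein, was at -0.33, and Mylip, a ubiquitin ligase that degrades lipoprotein receptors, at -0.38 with pair 3 lowest at -1.11. The fatty acid synthesis genes, also known SREBP targets, had a median female minus male difference of -0.11 with 9 of 12 lower (against 50.3% of all features), and 2 of them, Acaca and Elovl5, were lower at an unadjusted p under 0.05 (against 2.34%).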

How the data were processed

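Adrenal RNA of 6 transgenic and wild-type mouse pairs was compared on 12 two-colour arrays, with 25344 spots per array and 4.30% to 6.59% of them empty. The authors deposited log2 ratios. The sources used here give neither their normalization and scanner nor the ratio direction. The 6 full-precision arrays were those with the transgenic sample in Cy3. There, 100% of values were log2 ratios of whole numbers up to 65535 (relative tolerance 1e-13). Each probe's signal was derived from these numbers as a 75th percentile over those arrays. The arrays with the transgenic sample in Cy5 gave no signal of their own, and the same probe signals served for them. The deposited values were not centred, with array medians of 0.74 to 1.50 (transgenic in Cy5) and -0.68 to -0.22 (Cy3), so a loess curve (span 0.3) on signal was subtracted per array. After removal of the mean of each orientation, arrays of the same pair correlated at 0.24 to 0.675 and arrays of different pairs at -0.28 to 0.117, so columns were left unturned.

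Probes were named from the platform table (21082 probes with 1 gene, 30 with several, 4232 with none) and averaged per gene, and then over the 2 arrays of each pair. Features with at least 2 of 3 pairs per group were tested in limma 3.58.1 (R 4.3.3), two-sided with Benjamini-Hochberg adjustment over all features. The fit by age group had 4 residual and 3.85 prior degrees of freedom. The comparisons of sexes and of dye orientations were separate fits with their own degrees of freedom. The p-values measure the spread between pairs, each of 1 transgenic and 1 wild-type mouse. The precision is limited by the number of pairs, 6 in all with 3 at each age. The procedure was tested on simulated data. No member had a signal, as defined above, in the upper part of the 16-bit range (32768 or more). The brightest were Msmo1 at 31549 and Fdps at 22214. A single channel can be brighter than this signal, so whether these 2 genes came near the scanner limit is not settled. Named with all pairs are members under an unadjusted p of 0.05 in any comparison and the 3 largest estimates of each. Other pathway genes named are up to 8 by p over all pairs. The members and lists were chosen with earlier results of these data known. Alternatives were other dye corrections, single dyes, probes, filters, the sex term, no moderation and pairs left out.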

Additional observations from a re-analysis of the deposited data

Results flagged for a closer look

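Each of the 33 members was checked for a pair far from the other 5, and 2 members had one. Lrp1 was lowest in pair 1, at -1.23, where the next pair was at -0.39. Npc2 was highest in pair 15, at 0.97, where the next pair was at 0.01. Chance marks about 1 in 20 genes in this way. Adipocyte markers were also highest in pair 15, with a median of 1.70, and the macrophage markers had a median of 0.62 there. Their part in the Npc2 value was not tested.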

How the results depend on the processing

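Counts of members past an adjusted p of 0.05 stayed at 0 in the 5 comparisons of ratios under all other settings, except with the values as deposited (3 over all pairs, 3 at 4 months, 2 between the sexes), on Cy5 arrays alone (4 over all pairs, 1 at 4 months, 1 at 10 days) and on Cy3 arrays alone (2 over all pairs). The values as deposited shift the median of all features to 0.28, 0.36, 0.20, 0.17 and -0.25 over all pairs, at 4 months, at 10 days, between ages and between sexes. Members at an unadjusted p under 0.05 over all pairs numbered 7, but 3 without moderation, 4 without pairs 3, 11 and 15, and 11 on Cy3 arrays. At 4 months they numbered 7, but 2 without moderation. At 10 days they numbered 4, but 8 with array medians centred only, 1 as deposited, 9 with a sex term and 0 without pairs 3, 11 and 15. Between ages they numbered 2, but 4 centred only, 8 as deposited, 0 without moderation, 7 with a sex term, 5 on Cy5 and 4 on Cy3 arrays. Between sexes they numbered 8, but 13 as deposited. The dye orientation count of 10 was 27 with medians centred only.

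Leaving out 1 pair at a time kept the adjusted counts of the 5 comparisons at 0 to 0. The unadjusted counts then ran from 4 to 9 over all pairs, 4 to 9 at 4 months, 3 to 8 at 10 days, 2 to 6 between ages and 4 to 11 between sexes, and the dye count from 6 to 8. Of 476 alternative values of 28 named results, 5 turned: Mvd (0.066) and Lss (0.019) over all pairs as deposited, Lss on Cy3 arrays over all pairs (0.40) and at 10 days (0.16), and Fdps between the sexes on Cy3 arrays (0.16). The causes were not tested. Signal over background is unknown and may limit the dim probes. The dimmest tested members were Srebf2 (signal 145), Tm7sf2 (185), Lss (191), Abcg1 (266) and Mvd (266). Pairing between the ages was not possible because the age groups share no replicate numbers.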
